A study of Mus musculus with 10 samples.

Results

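The thymus libraries of 10 newborn mice were compared across the animal numbers in their titles, 5 numbered 56 to 63 against 5 numbered 44 to 51, with the Usp7 genotype held as a term. All 10 libraries of the series were members of one or the other set. The 2 sets were chosen by the scores on the second principal component of these same counts, where the split was first seen, so every difference between the sets is given as a description, with no p-value. The mice were of the C57BL/6J background and their thymus RNA was taken at day 3 after birth, depleted of ribosomal RNA and sequenced as stranded libraries. The higher-numbered set held 2 homozygous KO animals (57 and 62), 2 heterozygous KO animals (61 and 63) and 1 wild type (56). The lower-numbered set held 1 homozygous KO (50), 1 heterozygous KO (48) and 3 wild types (44, 47 and 51). Usp7, which encodes an enzyme that removes ubiquitin from other proteins, was deleted in the hematopoietic system on both alleles in the homozygous KO and on 1 allele in the heterozygous KO, and the Cre driver is not named in the labels. The thymic epithelium, fibroblasts and vessels lie outside the hematopoietic system. With the driver not named, whether any of these stromal cells also lost Usp7 is not known. The series describes wild types with and without Cre. Titles of animals 44 and 47 hold the word wt in a doubled form and those of animals 51 and 56 a single one, so the wild types on either side of the gap, 51 and 56, share a title form. In the count table the column names of 51 and 56 add the word het after wt, which the sample labels do not; both were kept as wild type, as labelled. The labels do not say whether the animal numbers follow litter, date of birth, dissection or extraction, and none of these can be told apart here. Within each genotype the library numbers run in the same order as the animal numbers, so the order of library handling cannot be told apart from the sets either. No pooling of animals is stated.

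Total counts ranged from 39.8 to 122 M in the lower-numbered set and from 81 to 107 M in the higher-numbered set. The log2 total differed by 0.0892 between the sets within genotypes (exact two-sided permutation p = 1, n = 5 against 5, where 36 arrangements allow a p of 0.0278 at the least). Mitochondrially encoded genes took 0.928% to 1.13% of the counts in the lower-numbered and 0.816% to 1.28% in the higher-numbered libraries. Usp7 was highest in the wild types, between 589 and 677 CPM, intermediate in the heterozygous KO, between 472 and 516 CPM, and lowest in the homozygous KO, between 303 and 422 CPM. Among the homozygous KO, animal 50 had 303 CPM and animals 57 and 62 had 422 and 408 CPM. The log2 difference of Usp7 between the sets was 0.45 in homozygous KO, 0.13 in heterozygous KO and -0.13 in wild type. CPM are read counts relative to library size, scaled by TMM, a factor that corrects for composition. Thymocyte genes marked every library as thymus, and Rag1, a recombinase subunit of double-positive thymocytes, lay between 3329 and 6623 CPM. Xist, the RNA of the inactive X chromosome, was at 1913 to 2459 CPM in animals 47, 51, 56 and 62 and at no more than 1.12 CPM in the others, so each set held 2 Xist-expressing libraries.

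Immediate-early genes are switched on within minutes of a stimulus from factors already present in the cell, and their mRNAs are short-lived. Many encode transcription factors of the AP-1, EGR and NR4A families, and others encode feedback inhibitors of the kinase and NF-kappaB pathways that induced them. In thymocytes many respond to the T cell receptor. Replication-dependent histone genes behave in the opposite way in time: they are transcribed in S phase, lie mostly in one large cluster, lack introns and give mRNAs that end in a stem-loop in place of a poly(A) tail, and these mRNAs are degraded when DNA synthesis stops. In the newborn thymus, where a large share of thymocytes divide, histone mRNA is abundant. In bulk tissue, fewer cells of a type and less RNA per cell cannot be told apart.

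The stretches upstream of 3 of the genes with the largest higher values are shown because Fos is the textbook target of CREB and serum response factor. The sequences are from RefSeq (GRCm38.p6) and cover the 250 bases before the annotated start, 5′ to 3′ on the gene's strand. Fos lies at chr12:85473640-85473889, plus strand, Junb at chr8:84978749-84978998, minus strand and Dusp5 at chr19:53528895-53529144, plus strand. Capitals mark TGACG, the core of the cAMP response element, on either strand in Fos and Junb, and the CArG box, bound by serum response factor, in Dusp5, where 2 matches adjoin each other.
Fos: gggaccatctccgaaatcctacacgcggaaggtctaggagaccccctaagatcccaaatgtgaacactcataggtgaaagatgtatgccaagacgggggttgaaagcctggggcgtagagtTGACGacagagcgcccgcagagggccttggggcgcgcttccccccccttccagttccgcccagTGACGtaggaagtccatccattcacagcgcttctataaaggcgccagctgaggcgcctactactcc
Junb: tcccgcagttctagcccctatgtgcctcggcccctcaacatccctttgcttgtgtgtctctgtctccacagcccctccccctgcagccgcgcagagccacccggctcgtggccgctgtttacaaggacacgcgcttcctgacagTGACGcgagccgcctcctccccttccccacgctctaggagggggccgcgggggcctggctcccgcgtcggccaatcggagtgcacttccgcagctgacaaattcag
Dusp5: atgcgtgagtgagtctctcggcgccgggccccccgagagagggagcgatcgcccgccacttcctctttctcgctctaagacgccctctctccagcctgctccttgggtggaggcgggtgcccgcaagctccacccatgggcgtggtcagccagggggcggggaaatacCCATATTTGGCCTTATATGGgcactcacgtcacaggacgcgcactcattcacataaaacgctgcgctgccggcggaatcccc

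The next 3 stretches belong to genes of the NF-kappaB pathway, Ier3 (chr17:35821463-35821712, plus strand), Tnfaip3 (chr10:19015411-19015660, minus strand) and Nfkbia (chr12:55492648-55492897, minus strand), the latter 2 being its inhibitors. Capitals mark the kappaB-like motif GGANNTTCC on either strand, which Nfkbia holds at 2 places.
Ier3: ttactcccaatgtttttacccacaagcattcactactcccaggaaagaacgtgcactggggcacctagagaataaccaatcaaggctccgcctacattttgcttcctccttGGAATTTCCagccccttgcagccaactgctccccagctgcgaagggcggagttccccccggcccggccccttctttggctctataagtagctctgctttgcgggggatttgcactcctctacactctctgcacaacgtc
Tnfaip3: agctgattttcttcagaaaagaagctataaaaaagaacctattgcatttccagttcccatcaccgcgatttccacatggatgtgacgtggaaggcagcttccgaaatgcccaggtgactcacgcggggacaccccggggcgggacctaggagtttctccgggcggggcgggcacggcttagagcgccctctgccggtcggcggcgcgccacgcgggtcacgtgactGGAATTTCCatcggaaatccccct
Nfkbia: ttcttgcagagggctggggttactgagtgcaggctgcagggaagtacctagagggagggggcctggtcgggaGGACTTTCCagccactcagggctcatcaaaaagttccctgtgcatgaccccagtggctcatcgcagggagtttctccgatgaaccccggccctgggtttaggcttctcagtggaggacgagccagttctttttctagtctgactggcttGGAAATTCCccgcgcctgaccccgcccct

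The promoter table held 12 of the 15 named genes with the largest higher values, described below, and 26 of the 31 immediate-early genes. TGACG or its complement was present in 6 of the 12, or 50%, and in 15 of the 26, or 57.7%, against 25.3% of 11974 promoters of tested genes. The full TGACGTCA, which contains that core, was present in 1 of the 12, Ppp1r15a, and in 2.48% of all. GGANNTTCC was present in 2 of the 12 (16.7%), in 1 of the 26 (3.85%) and in 3.83% of all, and the CArG box in 1 of the 12 (8.33%), in 3 of the 26 (11.5%) and in 1.18% of all. The AP-1 element TGANTCA was found in 2 of the 12, Tnfaip3 and Gfpt2, and in 4.65% of all, and in none of the 26. Of the 9 lower genes in the table, none held any of these motifs. These shares describe letters in a fixed window and no binding.

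The second component of log2 CPM carried 13.1% of the variance and its scores gave the split. In the lower-numbered set the scores were -27.64 (animal 44), -19.71 (animal 47), -10.01 (animal 48), -45.86 (animal 50) and -20.51 (animal 51). In the higher-numbered set they were 36.37 (animal 56), 10.43 (animal 57), 29.0 (animal 61), 21.24 (animal 62) and 26.7 (animal 63). The smallest gap between the sets was 20.4 units, between animals 48 and 57. The neighbours on the number scale, 51 and 56, scored far apart although both were wild type. After the genotype means were removed, the first component held 25.5% of the variance and again left a gap, of 17.1. With only the 1000 most variable features, the second component (10.3%) no longer separated the sets and its scores overlapped by 28.6 units; the 4 libraries with the highest scores were then those that expressed Xist.

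**Figure D1:**
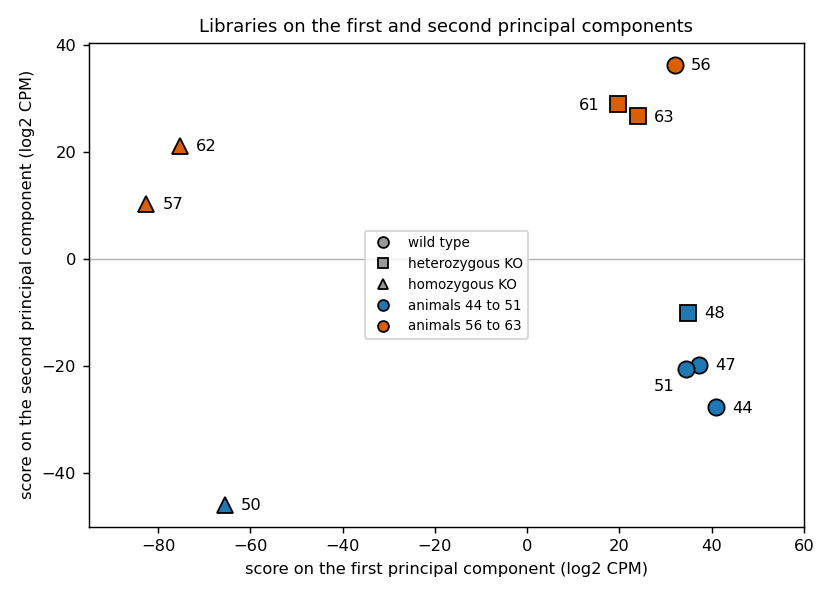
Scores of the 10 libraries on the first (x axis) and second (y axis) principal components of log2 CPM; symbols give the genotype, colours the number set, and labels the animal number. The first component sets the 3 homozygous KO animals apart, and on the second all 5 animals numbered 56 to 63 score above 10 and all 5 numbered 44 to 51 below -10.

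Of 19511 features tested, 402 (2.06%) were at least 2-fold higher in the higher-numbered set and higher within each of the 3 genotypes, and 308 (1.58%) were at least 2-fold lower and lower within each. Without a fold limit, 3979 features (20.4%) were higher and 3792 (19.4%) lower in all 3 genotypes. Within each genotype the midpoint between the means of the 2 sets was then subtracted. After this centring, 1399 features (7.17%) had all higher-numbered libraries above all lower-numbered ones and 1426 (7.31%) the reverse. Of the features that were both 2-fold apart and without overlap, 189 (0.969%) were higher and 164 (0.841%) lower. Both groups were mostly of low expression: 36 of the 189 (19.05%) and 8 of the 164 (4.878%) reached a mean log2 CPM of 2, against 54.1% of all tested. Of those annotated, 86.3% and 57.04% were protein-coding, against 80.4% of all tested. The median difference of all features was 0.0036 on the log2 scale. Without heterozygous KO animal 48, homozygous KO animal 50 or wild-type animal 56, its genotype has libraries in one set only. The same direction was then required in the other genotypes alone, which is a looser rule. Under it 933 features were higher without animal 48, and 553 and 464 were lower without animals 50 and 56. These counts are not comparable with those above and do not show a dependence on single animals.

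The 3 genotypes share no library, so each gives its own difference between the sets, with 1 or 2 libraries on a side in the knockouts. Across the 19511 features these differences correlated with Pearson's r of 0.334 between wild type and homozygous KO, 0.17 between wild type and heterozygous KO and 0.177 between the knockouts, over genes, which are not independent. The sign was shared by 65.2%, 58% and 56.5% of features. Features with a mean log2 CPM of 2 or more were ranked by the weaker of the differences in 2 genotypes. The 100 largest higher differences were then read in the genotype left out. Their median log2 difference was 0.835 in wild type, 0.525 in heterozygous KO and 0.795 in homozygous KO, with 92, 77 and 85 of the 100 above 0. For the 100 largest lower differences the medians were -0.631, -0.466 and -0.561, with 88, 92 and 93 below 0. All features of that expression had medians of -0.0131, 0.0335 and -0.0159 in the same order. The libraries that were read had helped to define the split, so these values are descriptive and are no replication.

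Among 964 named genes higher without overlap and with enough counts, the 15 largest differences included 6 members of the immediate-early list: Ier3, Junb, Dusp5, Gadd45b, Fos and Klf4. The largest was Ier3, an immediate-early gene that modulates survival and NF-kappaB signalling. It had 2.14, 1.85, 1.63, 3.32 and 1.88 CPM in animals 44, 47, 48, 50 and 51, and 8.45, 17.5, 6.95, 12.5 and 5.95 CPM in animals 56, 57, 61, 62 and 63. All 5 higher-numbered libraries lay above all 5 others, and the log2 difference was 2.09 (SE 0.13). Sik1, a salt-inducible kinase gene that is a CREB target and restrains CREB coactivators, had 89.7, 82.2, 68.2, 34 and 61.6 CPM in animals 44 to 51 and 375, 139, 277, 127 and 236 CPM in animals 56 to 63. Its sets did not overlap, the homozygous KO animals were lowest in both, and the log2 difference was 2.06 (SE 0.11). Within genotypes it was 2.29 in wild type, 1.90 in heterozygous KO and 1.97 in homozygous KO.

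AP-1 is a dimer of JUN and FOS proteins, and both families were higher. Junb had 57.4, 72.4, 45.6, 38.7 and 45.3 CPM in animals 44 to 51 and 255, 150, 200, 101 and 187 CPM in animals 56 to 63, with no overlap and a log2 difference of 1.98 (SE 0.15). Jun had 55.5, 64.6, 48.8, 23.1 and 32.7 CPM against 130, 70.9, 115, 53.1 and 106 CPM in the same order, and its log2 difference was 1.32 (SE 0.17). Its ranges overlapped through homozygous KO animal 62, which lay below wild types 44 and 47 but above its own genotype's animal 50. Fos had 19, 34.4, 19.8, 4.83 and 9.42 CPM against 54, 23.8, 44.1, 13.2 and 48.2 CPM, a log2 difference of 1.49 (SE 0.33). Its spread was the widest of the 3, since animals 44 and 51, both wild type, differed and the homozygous KO animals lay low in both sets. Fosl2 was higher by 1.08 (SE 0.14), Fosb by 0.71 (SE 0.31) and Jund by 0.43 (SE 0.07), and of these Fosb overlapped after centring.

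The immediate-early list held 3 phosphatases of MAP kinases, Dusp1, Dusp2 and Dusp5. Dusp5, a nuclear phosphatase for ERK, had 65.1, 63.8, 55.9, 43.3 and 61.6 CPM in animals 44 to 51 and 265, 186, 205, 152 and 187 CPM in animals 56 to 63. It had the smallest error of the first 15 genes, with a log2 difference of 1.95 (SE 0.07), and every genotype gave between 1.81 and 2.06. Dusp1, which acts on p38 and JNK, had 65.9, 80.8, 61.4, 49.9 and 48.8 CPM against 139, 107, 131, 87.2 and 126 CPM, also with no overlap and a log2 difference of 1.04 (SE 0.12). Dusp2 differed by 0.34 (SE 0.09) and overlapped after centring.

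The other named genes of the 15 were Gadd45b (log2 difference 1.75), a stress-induced activator of MAP kinase signalling; Hes1 (1.6), a Notch-induced repressor; Ppp1r15a (1.52), which relieves the block on translation after stress; Tnfsf11 (1.51), the RANK ligand by which thymocytes act on medullary epithelium; Klf4 (1.48), a zinc-finger factor of quiescence; Snx18 (1.48), a sorting nexin; Psd (1.42), an exchange factor for the ARF6 GTPase; Trib1 (1.39), a pseudokinase; Tnfaip3 (1.36); and Gfpt2 (1.35), an enzyme of hexosamine synthesis. Their standard errors lay between 0.08 and 0.24. Hes1 had 17, 14.9, 14.4, 3.91 and 14.1 CPM in animals 44 to 51 and 36.5, 28, 33.1, 14.2 and 36.3 CPM in animals 56 to 63. Both homozygous KO extremes, 50 and 62, stood apart from the rest of their sets, and animal 62 reached only the level of the lower-numbered wild types. Gfpt2 was the least even across genotypes, at 1.78 in wild type, 0.54 in heterozygous KO and 1.68 in homozygous KO.

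**Figure D2:**
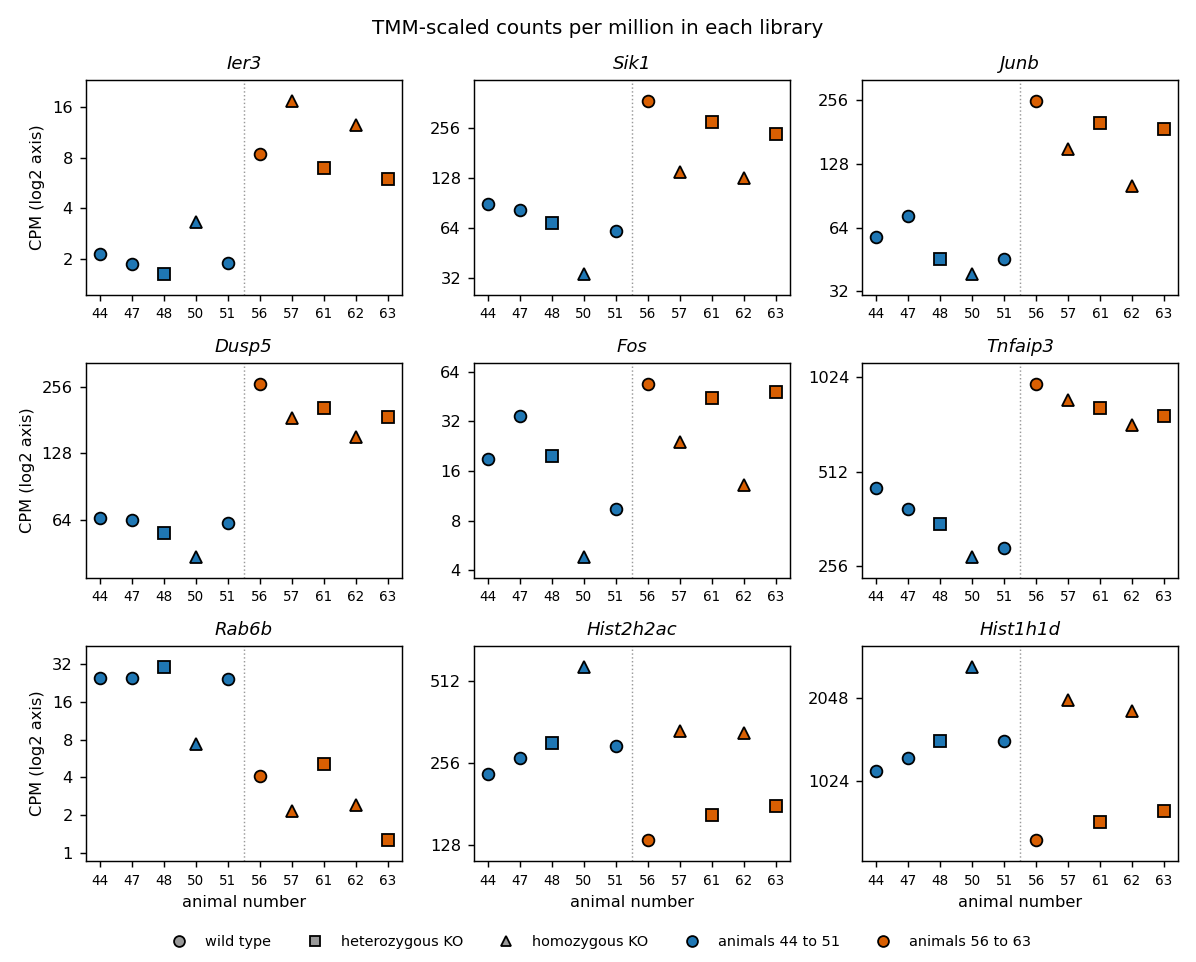
TMM-scaled CPM (y axis, log2 scale) of 9 named genes in each library, ordered by animal number (x axis), with the gap between 51 and 56 as a dotted line. The first 6 genes step up at the gap within every genotype and the last 3, Rab6b and the histone genes Hist2h2ac and Hist1h1d, step down; homozygous KO animals are shown as triangles.

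Over the list of 31 immediate-early genes, all of which were tested, 23 were higher and 4 lower in all 3 genotypes, beside 20.4% and 19.4% of all features. At least 2-fold higher in the fit over all libraries, and higher in each genotype, were 13, beside 2.06% of all, and 19 were without overlap on the higher side and 1 on the lower, beside 7.17% and 7.31%. The median log2 difference was 0.75, and within genotypes 0.92 in wild type, 0.85 in heterozygous KO and 0.69 in homozygous KO. Besides those above, the 13 included Atf3, a stress-responsive factor (1.90, SE 0.26), Nr4a2, an orphan nuclear receptor (1.08, SE 0.11), and the rarely counted Ccn1 (1.78, SE 0.53) and Egr4 (1.38, SE 0.67), both of which overlapped after centring. Nr4a1, which marks antigen receptor signalling in thymocytes, had 55.5, 63, 54.9, 24.4 and 81.1 CPM in animals 44 to 51 and 124, 60.8, 119, 44 and 101 CPM in animals 56 to 63, a log2 difference of 1 (SE 0.13). Nr4a3 was higher by 0.67 (SE 0.12). The RNA-decay factor Zfp36 was higher by 0.63 (SE 0.11) and Ier2 by 0.71 (SE 0.11).

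The factors Egr1, Egr2 and Egr3 did not share this direction. Egr1 had 64.9, 70.1, 59.3, 26.7 and 92.5 CPM in animals 44 to 51 and 57.2, 29.5, 54.8, 24.1 and 57.9 CPM in animals 56 to 63, with wide overlap and a log2 difference of -0.17 (SE 0.12). Egr2 had 10.7, 12.2, 11.2, 3.43 and 18.9 CPM against 8.6, 2.71, 8.52, 2.14 and 8.76 CPM. It was lower in all 3 genotypes, by -0.53 (SE 0.17), and did not overlap after centring. Egr3 differed by -0.81 (SE 0.28), Npas4, hardly detected, by -0.79 (SE 0.53) and Btg2, an antiproliferative gene, by -0.15 (SE 0.09), all 3 lower in every genotype but overlapping. Srf, which encodes the factor that binds CArG boxes, differed by 0.04 (SE 0.07).

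**Figure D3:**
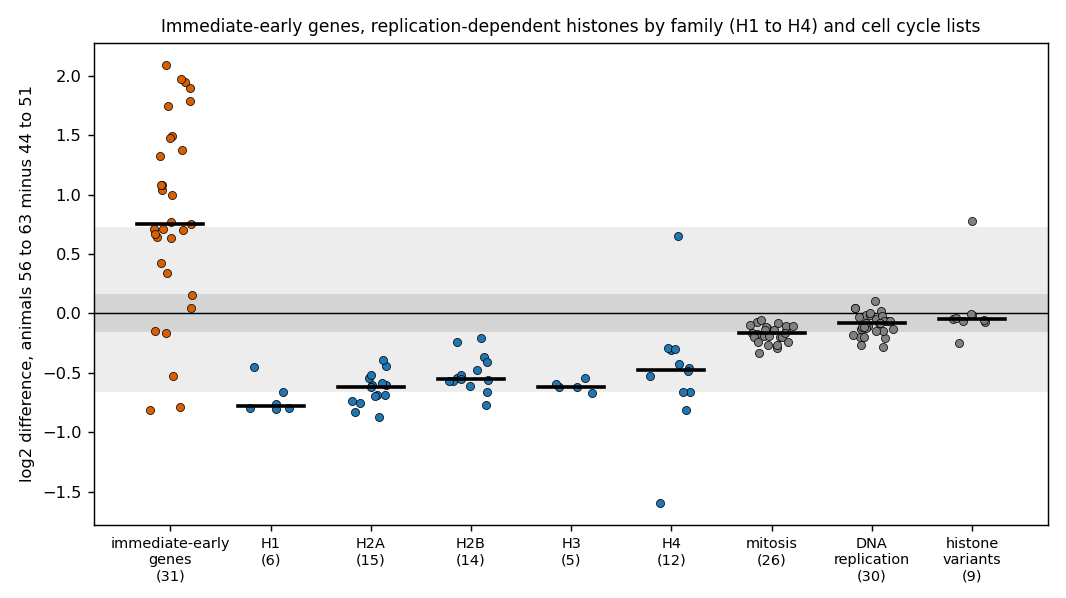
Log2 difference of each gene (points; y axis) in the lists named on the x axis, with the number of genes tested in brackets and the list median as a black bar; dark and light grey bands span the middle 50% and 90% of all 19511 tested features. Immediate-early genes spread from -0.81 to 2.09 with a median of 0.75, while 51 of 52 replication-dependent histones lie below 0.

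Lists for the pathways of these genes were put together after their values had been seen, and their counts describe them only. Of 19 genes of NF-kappaB feedback and response, 16 were higher in all 3 genotypes (20.4% of all features), 13 without overlap (7.17%) and 5 at least 2-fold (2.06%), and the median was 0.51. Tnfaip3, the A20 ubiquitin-editing inhibitor of NF-kappaB, had 453, 388, 348, 273 and 291 CPM in animals 44 to 51 and 976, 866, 816, 719 and 768 CPM in animals 56 to 63. The lowest higher-numbered library was well above the highest other one. Nfkbia, the inhibitor IkappaB-alpha, had 148, 145, 129, 149 and 151 CPM against 304, 392, 266, 262 and 247 CPM, a log2 difference of 1.05 (SE 0.10). The 5 lower-numbered values were close together whatever the genotype. Ptgs2, the inducible cyclooxygenase, had 0.786, 0.481, 0.55, 0.0347 and 0.450 CPM against 4.34, 0.440, 2.82, 0.310 and 3.25 CPM, with a log2 difference of 2.82 (SE 0.24) at low counts. Map3k8 (1.25), Irf1 (1.04), Nfkb2 (0.91), Relb (0.56) and Rel (0.52) were higher without overlap, whereas Nfkb1 differed by -0.05 (SE 0.05), Bcl3 by -0.15 (SE 0.14) and Traf1, lower without overlap, by -0.32 (SE 0.11).

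Of 9 inhibitors of ERK signalling, 5 were higher in all 3 genotypes (20.4% of all features) and without overlap (7.17%), and the median was 0.46 (0.79 without wild-type animal 56). Spry1, a Sprouty protein, had 10.7, 9.48, 10.02, 8.24 and 9.24 CPM in animals 44 to 51 and 20.6, 16.7, 19.3, 16.7 and 16.9 CPM in animals 56 to 63, and its log2 difference was 0.99 (SE 0.08). Spry2 was higher by 0.95 (SE 0.14), whereas Dusp6 differed by 0.03 (SE 0.16) and Spred1 and Spred2 by less than their errors. Of 10 cAMP and CREB targets tested, all 10 were higher in all 3 genotypes (20.4% of all features), 8 without overlap (7.17%), and the median was 0.91. Rgs2, a regulator of G protein signalling, had 47.2, 44.4, 39.0, 24.4 and 35.9 CPM against 88.9, 49.4, 80.3, 40.8 and 81.9 CPM. Its difference was 1.01 (SE 0.09), Pde4b, a cAMP phosphodiesterase, was higher by 0.50 (SE 0.11), and Crem differed by 0.08 (SE 0.08). Of 11 BMP, TGF-beta and Notch targets, 7 were higher in all 3 genotypes (20.4% of all features), led by Hey1 (1.69, SE 0.17), Hes1 and Id1 (1.15, SE 0.18), while Dtx1 and Nrarp, 2 Notch targets, differed by 0.24 (SE 0.34) and 0.13 (SE 0.10). The median of that list, 0.24, was 0.63 without wild-type animal 56.

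Glucocorticoid-responsive and clock genes were partly higher. Of 16 glucocorticoid-responsive genes, 9 were higher and 2 lower in all 3 genotypes, beside 20.4% and 19.4% of all features, and 9 did not overlap on the higher side, beside 7.17% (median 0.39). These 9 took in Nfkbia and Dusp1, which other lists also hold, with Mt2 (1.28), Klf9 (1), Per1 (0.82) and Tsc22d3 (0.34, SE 0.08), whereas Fkbp5, a receptor target, differed by -0.05 (SE 0.05). Of 19 clock genes, 9 were higher without overlap and none lower (7.17% and 7.31% of all), with a median of 0.13 that was 0.32 without heterozygous KO animal 48 and 0.30 without wild-type animal 56. Bhlhe40, a repressor, had 5.84, 5.20, 5.03, 2.98 and 5.37 CPM in animals 44 to 51 and 11.4, 9.93, 9.97, 7.42 and 9.55 CPM in animals 56 to 63. Its sets were apart, with a log2 difference of 1.18 (SE 0.13), and Nfil3, a repressor of the same output genes, was higher by 1.15 (SE 0.10). Per1 had 56.3, 57.7, 48, 30.1 and 47.6 CPM against 98.2, 55.9, 84.7, 50.8 and 77.1 CPM. The core genes Arntl, Clock and Dbp differed by 0.03 (SE 0.09), 0.12 (SE 0.09) and 0.06 (SE 0.17), and Nr1d1 and Nr1d2 were higher by 0.80 and 0.63.

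Other stress lists had medians near that of all features. The heat shock list of 18 genes had a median of -0.019. Higher in all 3 genotypes were 5, the inducible Hspa1a, Hspa1b, Bag3, Hspb1 and Dnajb1, and 2 were lower, beside 20.4% and 19.4% of all features. Hspa1b had 1.13, 1.20, 1.05, 1.69 and 0.866 CPM in animals 44 to 51 and 1.87, 3.25, 1.66, 2.97 and 2.19 CPM in animals 56 to 63, a log2 difference of 0.86 (SE 0.16). The 20 ATF4 and unfolded protein genes (median 0.056), the 20 hypoxia and glycolysis genes (0.058), the 22 p53 targets (0.050), the 26 interferon-stimulated genes (0.013) and the 86 ribosomal protein genes (0.074) also lay close to 0. In the same order, 9, 8, 8, 4 and 24 were higher in all 3 genotypes, beside 20.4% of all features. Lower in all 3 were 2, 1, 5, 2 and 3, beside 19.4%. Without overlap, 5, 3, 4, 1 and 7 were higher and 1, 1, 1, 0 and 0 lower, beside 7.17% and 7.31%. Within these lists Vegfa, the hypoxia-inducible vascular growth factor, was higher by 0.83 (SE 0.07), Dnajb9 by 0.86 and the p53 target Plk2 by 1.21 (SE 0.12), each without overlap, and Eno1 was lower by -0.38 (SE 0.07). Cirbp and Rbm3, RNA-binding proteins induced by cold, differed by 0.28 (SE 0.09) and 0.24 (SE 0.05). The median of the 15 mitochondrially encoded genes was -0.16.

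Replication-dependent histone genes were lower nearly without exception. Of 52 tested of 57 in the table, 51 were lower in all 3 genotypes, beside 19.4% of all features, and 48 did not overlap, beside 7.31%. The median log2 difference was -0.59, with -0.65 in wild type, -0.59 in heterozygous KO and -0.51 in homozygous KO, and 1 was at least 2-fold lower. Summed over the family, histone genes had 17710, 19680, 21660, 38310 and 19270 CPM in animals 44 to 51 and 12490, 26950, 14480, 26980 and 14750 CPM in animals 56 to 63. The homozygous KO animals had the highest sum in each set, so the sets overlapped as a whole, while within each genotype every higher-numbered library was below every lower-numbered one. Without genotype as a term the median was -0.29.

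Every histone class took part. The 6 linker histone H1 genes had a median of -0.78 and the 15 H2A, 14 H2B, 5 H3 and 12 H4 genes had medians of -0.62, -0.55, -0.62 and -0.47. All 6, 15, 14 and 5 were lower in all 3 genotypes, and 11 of the 12 H4 genes. By position, the 44 genes of the large cluster Hist1 had a median of -0.58, the 5 of Hist2 -0.67 and the 3 of Hist3 -0.55. Hist1h1d, an H1 gene, had 1119, 1247, 1429, 2664 and 1439 CPM in animals 44 to 51 and 626, 2017, 726, 1843 and 801 CPM in animals 56 to 63. Within each genotype the higher-numbered animals were lower, by -1.01 in wild type, -0.91 in heterozygous KO and -0.47 in homozygous KO. Hist2h2ac, an H2A gene, had 233, 266, 305, 576 and 296 CPM against 134, 336, 165, 329 and 179 CPM, a log2 difference of -0.87 (SE 0.07). Hist1h4n had 257, 267, 368, 409 and 331 CPM against 57.4, 151, 121, 156 and 238 CPM, a difference of -1.59 (SE 0.24), while Hist1h4m, the exception, differed by 0.65 (SE 0.61) with values from 14.3 to 19.2 CPM in animals 48, 51 and 63, 305 to 346 CPM in the homozygous KO animals and 95.3 to 114 CPM in the other 4. Members of this family are nearly identical in sequence, and how shared reads were divided is not stated, so single H4 genes are uncertain. Hist2h2be differed least among the non-overlapping genes, by -0.21 (SE 0.06).

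Other genes of dividing cells differed less. The 26 mitosis genes had a median of -0.17, 14 of them lower in all 3 genotypes (19.4% of all features) and none without overlap (7.31%), and the median was -0.014 in wild type, -0.06 in heterozygous KO and -0.43 in homozygous KO. The 30 DNA replication genes had a median of -0.082, with 5 lower in all 3 genotypes and 1, Cdc7, without overlap, shares below the 19.4% and 7.31% of all features. Slbp, which encodes the protein that binds the histone stem-loop, differed by -0.15. Histone variants that are made outside S phase, a list added after the values were seen, had a median of -0.044 over 9 genes, and H3f3b, which encodes H3.3, differed by -0.06 (SE 0.06).

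The 15 named genes with the largest lower differences were drawn from 879 and included Hist1h4n, Hist2h2ac, Hist1h2an, Hist1h4j and Hist1h1d. The largest was Rab6b, a Golgi GTPase gene best known in neurons. It had 24.8, 24.7, 30.4, 7.41 and 24.5 CPM in animals 44 to 51 and 4.11, 2.14, 5.11, 2.39 and 1.26 CPM in animals 56 to 63, a log2 difference of -2.57 (SE 0.36). All higher-numbered libraries were lower, and in the lower-numbered set homozygous KO animal 50 stood below the other 4. Olfml3, a secreted matrix protein gene, had 11, 11.1, 13.6, 6.63 and 6.52 CPM against 3.87, 2.14, 3.07, 3.18 and 3.89 CPM, a log2 difference of -1.53 (SE 0.20). Its sets did not overlap in any genotype. Lrig1, an inhibitor of growth factor receptors, had 67.2, 41, 51.7, 8.43 and 73.7 CPM against 28.6, 4.62, 27.6, 2.55 and 24.9 CPM and differed by -1.09 (SE 0.19). Its sets overlapped through animal 50 and were apart within each genotype.

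The remaining lower genes were Nacad (-1.17), a relative of a ribosome-bound complex subunit; Ccr8 (-1.17), a chemokine receptor; Prdm16 (-0.95), a transcriptional regulator of stem cells and brown fat; Bmpr1a (-0.92), a BMP receptor; Caskin2 (-0.90), a scaffold protein; Clec2d (-0.88), a lectin recognised by NK receptors; and Dnajb13 (-0.81), of the sperm flagellum. Their standard errors ranged from 0.10 to 0.35. Bmpr1a had 4.91, 6.5, 8.14, 43.9 and 14.4 CPM in animals 44 to 51 and 3.54, 32.3, 4.6, 23.8 and 4.59 CPM in animals 56 to 63. The homozygous KO animals were several times above the others, so the sets could be told apart only within genotypes. With no genotype term its difference was -0.18, and -1.79 under a replicate block. The difference of Ccr8 was -0.57 without homozygous KO animal 50.

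**Figure D4:**
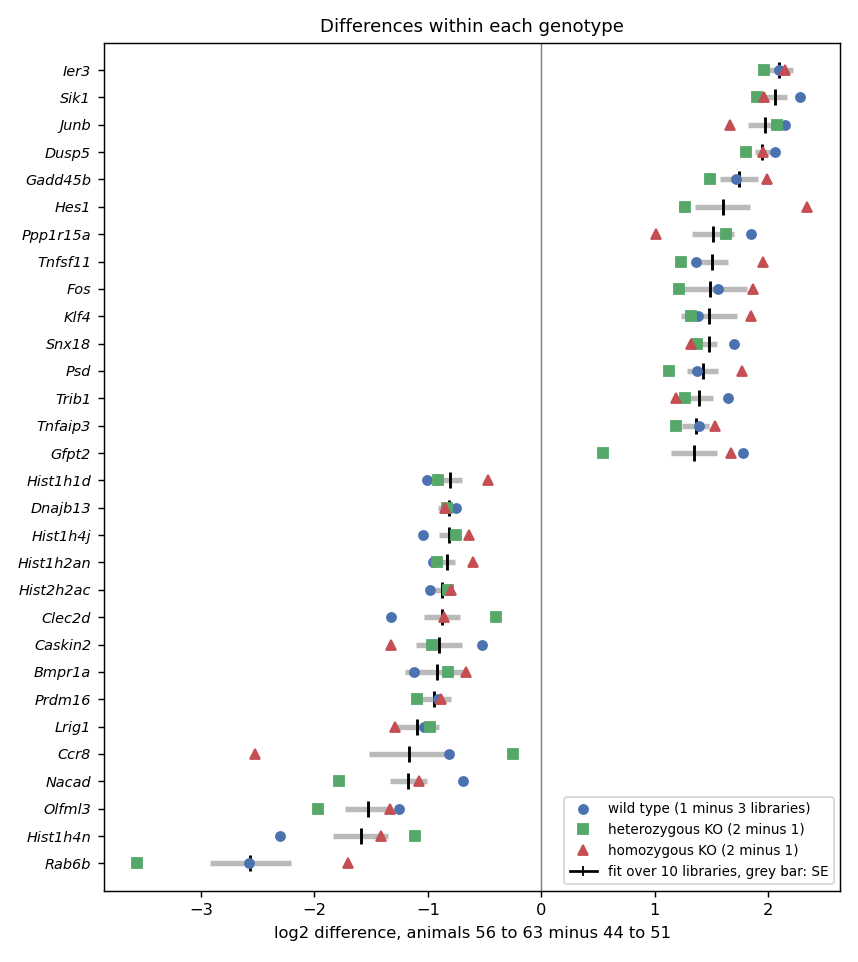
Log2 difference between the number sets within each genotype (coloured symbols) and in the fit over all 10 libraries (black ticks with grey bars of 1 SE; x axis) for the 15 named genes with the largest higher and the 15 with the largest lower differences (y axis). Each gene has all 3 genotypes on the same side of 0, which the rule for naming genes required; the genotypes lie close together for Dnajb13 (-0.75 to -0.85) and Ier3 (1.96 to 2.15) and far apart for Ccr8 and Rab6b.

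Cell type lists were read for the makeup of the tissue. Double-positive thymocytes, the bulk of the organ, had a median of -0.043 over 16 genes, with 14460 to 18080 summed CPM in the lower-numbered and 14790 to 16920 in the higher-numbered libraries. The median was -0.20 in wild type, 0.002 in heterozygous KO and 0.076 in homozygous KO. Without overlap, 4 of the 16 were lower and 1 higher, beside 7.31% and 7.17% of all features. Of these genes Rag2, the partner of Rag1, was the furthest from 0, with 140, 138, 124, 122 and 166 CPM in animals 44 to 51 and 93.8, 71.4, 91.4, 84.2 and 106 CPM in animals 56 to 63. Rag2 was lower without overlap (-0.55, SE 0.09), whereas Rag1 differed by -0.02 (SE 0.07). The 19 double-negative and progenitor genes had a median of -0.047, the 21 mature single-positive genes -0.16 and the 21 regulatory and innate-like T cell genes -0.15. The double-negative median was -0.20 in wild type, -0.03 in heterozygous KO and 0.50 in homozygous KO. Ctla4 was higher by 0.75 and Foxp3 lower by -0.57, both without overlap.

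Genes of thymic epithelium, the stroma on which thymocytes develop, were mostly higher in the higher-numbered libraries. Of 14 genes of cortical epithelium tested, 13 were higher in all 3 genotypes (20.4% of all features), 3 did not overlap (7.17%) and the median was 0.70. Their summed values were 244 to 319 CPM in the lower-numbered and 345 to 543 CPM in the higher-numbered libraries. Krt8, a keratin, had 18.1, 23.6, 17.4, 19.8 and 21.0 CPM in animals 44 to 51 and 32.3, 25.4, 43.5, 57.7 and 39.7 CPM in animals 56 to 63, a log2 difference of 0.97 (SE 0.22). Every higher-numbered library lay above every other one. Pax1 was higher by 0.86 (SE 0.17), Foxn1, the master regulator of these cells, by 0.60 (SE 0.25) and Psmb11, their own proteasome subunit, by 0.58 (SE 0.23), of which the last 2 overlapped. Relative to the mean of the lower-numbered wild types, the median of the cortical list was uneven among the homozygous KO animals. It was 0.98 in animal 62, 0.07 in animal 57 and -0.05 in animal 50, beside 0.31 in wild type 47. More epithelial cells and more RNA per cell cannot be told apart here. The part of either in the immediate-early differences was not tested.

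Medullary epithelium had a median of 0.325 over 16 genes, or 0.53 without wild-type animal 56, with 9 higher and 1 lower in all 3 genotypes, beside 20.4% and 19.4% of all features. Aire, the regulator of tissue antigens, differed by 0.37 (SE 0.33), and Ltbr and Pou2f3, of the tuft lineage, were higher without overlap. Fibroblast and matrix genes had a median of 0.43 that came from the homozygous KO: it was 1.21 there, 0.23 in heterozygous KO and -0.16 in wild type, and -0.04 without homozygous KO animal 50. It was 0.83 without wild-type animal 56. Endothelial genes had a median of 0.26, from -0.16 in wild type to 0.72 in homozygous KO, where animal 57 alone was high, and the median was -0.03 without animal 57 or without animal 50 and 0.60 without wild-type animal 56. Of the pericyte and smooth muscle genes, Cspg4 was higher (1.76, SE 0.32) and Acta2 lower (-1.42, SE 0.28), both without overlap and at no more than 4.3 CPM in any library.

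Blood cell lists depended on single animals. The 16 neutrophil granule genes had a median of 0.58, made up of 1.72 in homozygous KO, 0.43 in wild type and -0.65 in heterozygous KO, and none was without overlap. S100a8, a granule protein, had 4.89, 1.54, 1.57, 9.73 and 0.911 CPM in animals 44 to 51 and 2.96, 65.7, 0.900, 29.0 and 1.31 CPM in animals 56 to 63. All 3 homozygous KO animals were above the other 7, animals 57 and 62 further than animal 50, and the list median was -0.24 without homozygous KO animal 50, 0.21 without animal 57 and 1.225 without heterozygous KO animal 48. Erythroid genes had a median of -0.089 with opposite signs, 0.89 in wild type, 0.86 in heterozygous KO and -1.49 in homozygous KO. Macrophage genes had a median of 0.32 (0.13 without heterozygous KO animal 48), dendritic cell genes of 0.21 and B cell genes of -0.34. Among the B cell genes, 8 of 15 were lower in all 3 genotypes (19.4% of all features) and 4 without overlap (7.31%), including Pax5 (-0.70, SE 0.35) and Fcer2a (-0.50, SE 0.17), while Jchain, of antibody-secreting cells, was 1.51 higher (SE 0.57) with overlap.

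Tissues that adjoin the thymus were represented at low levels in both sets. Adipose genes summed to 22.5 to 28.1 CPM in the lower-numbered and 26.2 to 36.8 CPM in the higher-numbered libraries, skeletal muscle genes to 56.2 to 61.7 and 57.5 to 70.3 CPM, and parathyroid and thyroid genes to 6.37 to 11.7 and 6.61 to 8.90 CPM. Of the 12 listed genes each of cartilage and bone and of airway epithelium, 7 of either list passed the filter on low counts. The medians of these lists ranged from -0.44 for airway epithelium to 0.17 for skeletal muscle, and rest on few genes.

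**Figure D5:**
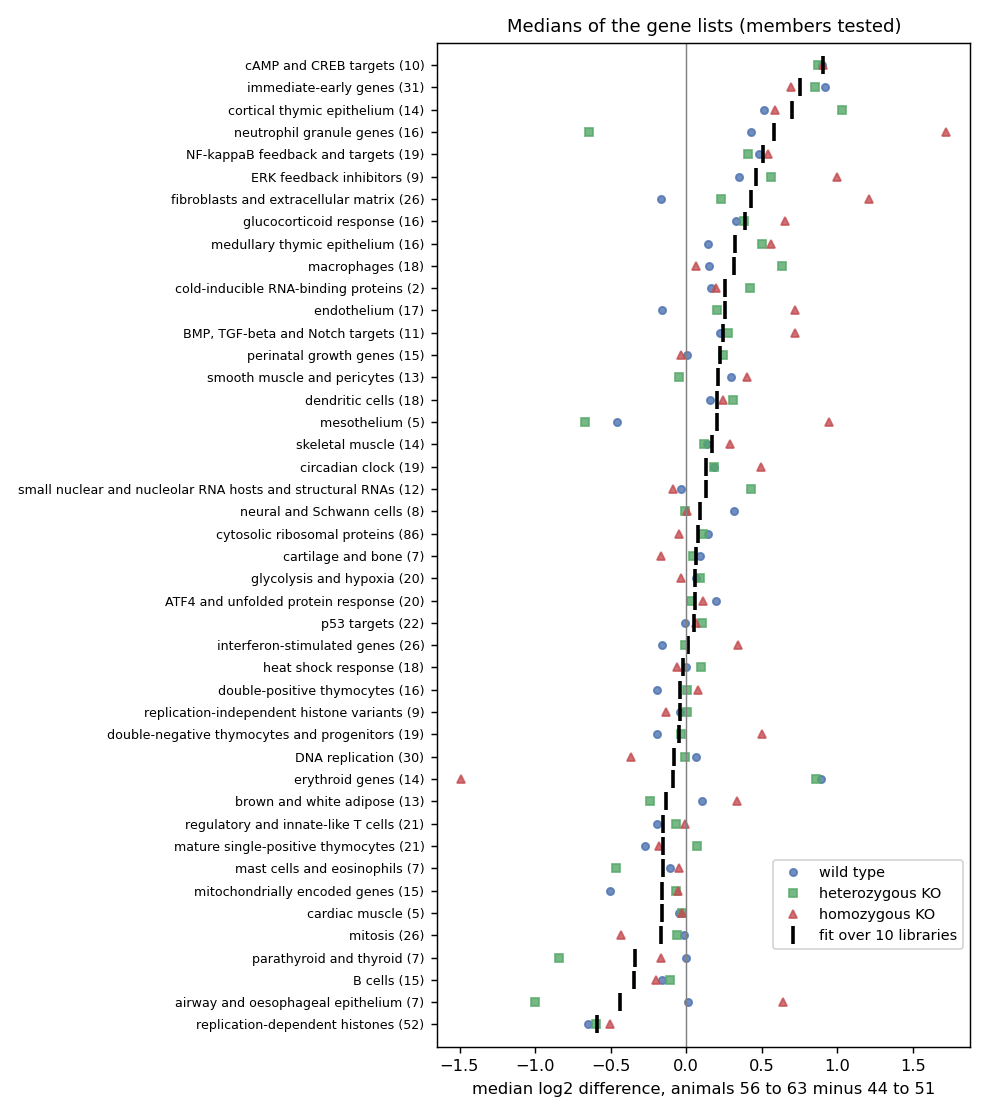
Median log2 difference of each gene list (y axis; number of genes tested in brackets) between the number sets, within genotypes (coloured symbols) and in the fit over 10 libraries (black ticks; x axis). The cAMP, immediate-early and NF-kappaB lists have all genotypes near each other on the right and the replication-dependent histones on the left, whereas the neutrophil, fibroblast and erythroid lists have genotypes on both sides of 0.

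A few genes, none above 9.32 CPM in any library, were nearly on in one set and off in the other. Zfp990, a zinc-finger gene, had 0.221, 0.289, 0.120, 0.0955 and 0.135 CPM in animals 44 to 51 and 5.80, 2.08, 5.54, 2.05 and 8.13 CPM in animals 56 to 63, a log2 difference of 5.02 (SE 0.28). All higher-numbered libraries were several times above all others. Arntl2, a paralog of the clock gene Arntl, had 5.60, 4.16, 0.330, 9.32 and 4.83 CPM against 0.544, 0.342, 0.147, 0.388 and 0.370 CPM, so that heterozygous KO animal 48 alone of its set was low. BC002163 had 0.688, 0.794, 1.10, 0.851 and 0.619 CPM against 6.78, 9.04, 0.932, 7.88 and 8.67 CPM, and heterozygous KO animal 61 alone of its set was low. These 3 were picked after their values had been seen.

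Single imprinted and fetal genes, described after their values were seen, differed among the homozygous KO animals. H19, an imprinted RNA, had 103, 100, 89.1, 102 and 103 CPM in animals 44 to 51 and 65.7, 357, 75.7, 376 and 97.5 CPM in animals 56 to 63. Animals 57 and 62 were the high ones. The difference between the number sets was 1.84 in homozygous KO, -0.63 in wild type and -0.05 in heterozygous KO. Gm5815, a predicted gene, was at 26.2 CPM in animal 50 and between 1.88 and 3.06 CPM in all others. In edgeR's fit of the interaction of number set and genotype, these were the 2 features (0.0103%) of 19511 past the threshold, where 2213 had an unadjusted p under 0.05. These p-values are given as a description, since the sets came from these counts and 3 of the 6 combinations of genotype and set held 1 library, the homozygous KO of the lower-numbered set being animal 50 alone. Without animal 50 neither feature was past it (edgeR adjusted p 0.53 for H19 and 0.674 for Gm5815). DESeq2 called 446 features in the same comparison, and a fit with the wild types split by title form called 230.

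Igf2, the fetal growth factor encoded beside H19, had 1.35, 2.43, 1.73, 7.53 and 2.96 CPM in animals 44 to 51 and 1.49, 31.4, 2.50, 37.9 and 2.52 CPM in animals 56 to 63. As for H19, the 2 higher-numbered homozygous KO animals were high. Lin28b and Igf2bp1, of the fetal program, went the other way, at 20.5 and 3.07 CPM in animal 50 and at most 9.59 and 0.521 CPM elsewhere. As a list, the 15 perinatal growth genes had a median of 0.22, with -0.03 within the homozygous KO, and no member without overlap.

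Heterozygous KO and wild type were compared again with and without the number set, since the sets are unequal between these groups. With the term, 3 features were called in edgeR (0.0154%; 1534 at an unadjusted p under 0.05) and without it 3 (0.0154%; 1421), and the 3 were shared: Commd10, Fyb and Sva. The log2 fold change of Commd10, a COMMD family gene, was 1.45 with the term (edgeR adjusted p 1.56e-05) and 1.47 without, and that of Fyb, a T cell adapter gene, 0.49 (edgeR adjusted p 0.0136) and 0.52. DESeq2 called 97 features with the term.

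Properties of the genes that the split did not use were read from the GENCODE models of GRCm38. Among features whose mean log2 CPM reached 2, the 36 that were 2-fold higher without overlap held 32 with a coding model, which had a median of 4 exons and a median span of 8.98 kb, against 10 exons and 24.6 kb for 9875 such genes. The AU-rich element TATTTAT, a mark of unstable mRNAs, was present in the 3′ untranslated region of 50% of the 32 and 27.9% of all, and in 58.1% of the immediate-early genes. The lower genes were also short: the 6 with a coding model among the 8 that were 2-fold lower without overlap had a median of 5.5 exons and 12.01 kb, and 33.3% held TATTTAT. The 15 named lower genes had a median of 5 exons and 8.23 kb, against 4 exons and 8.75 kb for the 15 named higher genes, and TATTTAT was present in 28.6% and 40% of them. Among the named genes Ier3, Ppp1r15a and, on the lower side, Hist1h1d held 4 copies each, and Fos, Tnfaip3 and the lower Lrig1 held 2. Of the histone genes with a coding model, 89.8% had 1 exon. Across the 9875 genes the log2 difference was only weakly related to transcript length (Spearman's rho -0.049) and to GC content (rho 0.11), over genes of the same libraries.

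The wild-type difference was also read between the 2 animals that lie on either side of the gap in the numbers and share a title form and Xist expression. Animal 56 exceeded animal 51 by 2.49 on the log2 scale for Junb, 2.52 for Fos and 2.11 for Dusp5, and the list median was 0.80. For the histones the median was -0.64. Cortical epithelium gave 0.48, medullary epithelium -0.20 and NF-kappaB genes 0.31. These are single libraries, with no replicate check. Both helped to define the sets and belong to the wild-type differences given above, so the values are no independent support.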

How the data were processed

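Thymus RNA of 10 mice was sequenced, and the deposited table holds whole counts per gene, not normalized, which the authors made per library. The submitters' processing notes name CASAVA, STAR 2.4.1d, HTSeq 0.6.1p1 and the build NCBIM37 (mm9), whereas the study's methods describe another aligner, so the aligner is uncertain. The strand setting and the handling of multiply mapped reads are not given in the sources used here. Of 35375 features, 19511 passed edgeR's filterByExpr. Counts were scaled by TMM and fitted in edgeR 4.0.16 (R 4.3.3, limma 3.58.1) with the quasi-likelihood method, with genotype and number set as terms. Log2 CPM used a prior count of 2. Differences between the number sets carry no p-value, because these counts defined the sets. The interaction with genotype and the heterozygous KO comparison were tested with Benjamini-Hochberg adjustment over all features, and library totals by an exact permutation within genotypes. The labels do not say that the samples came from separate litters, so p-values measure the spread between these animals. For the overlap, values were centred in each genotype on the midpoint between the mean of its higher-numbered and the mean of its lower-numbered libraries. A feature was called without overlap where every library of one set then lay above every library of the other. This centring uses the sets, so the counts without overlap are descriptive.

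Named were the 15 largest higher and 15 largest lower differences among features without overlap, with a mean log2 CPM of 2 or more and a symbol that is not a predicted or clone-based name, with Usp7, features of the interaction and, in each list, members at least 2-fold apart and up to 4 of its best-known genes. A few other genes were named after their values were seen. The members and lists were chosen with earlier results of these data known. DESeq2 1.42.0, other scalings, no filter, other terms and leaving out each library were tried as alternatives. Scripts were tested on simulated data. Promoter sequences came from RefSeq (GRCm38.p6) and were matched by symbol, and gene models from GENCODE. The 45 pairs of libraries all differed by more than counting noise.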

Additional observations from a re-analysis of the deposited data

Results flagged for a closer look

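In groups of 4 or 5 libraries, the gap of the most extreme library to its nearest neighbour was divided by the range and set against Dixon's critical value. Of 99 groups of values examined, 18 passed. Most values belong to genes chosen for a lack of overlap between the sets, so the count cannot be compared with a chance rate. Among the 4 wild types, animal 56 stood apart for Ier3 (0.907), Dusp5 (0.963), Gadd45b (0.878), Tnfsf11 (0.862), Snx18 (0.873), Trib1 (0.843), Gfpt2 (0.842), Rab6b (0.992), Hist1h4n (0.856), Hist1h2an (0.899) and the score on the second component (0.876). It is the one higher-numbered wild type, and these genes were named for their difference between the sets.

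Within the lower-numbered set homozygous KO animal 50 stood apart for Hes1 (0.872), Rab6b (0.846), Lrig1 (0.729), Hist1h2an (0.712), Hist1h4j (0.765) and Hist1h1d (0.71), and it is the one homozygous KO of that set. Within the higher-numbered set animal 62 stood apart for Hes1 (0.719).

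The difference between the sets varied with genotype in the interaction fit for Gm5815 (edgeR adjusted p 0.00288) and H19 (edgeR adjusted p 0.00456). Both rest on animal 50, the one lower-numbered homozygous KO, and the sets came from these counts, so the p-values do not show a dependence on genotype. Over the alternatives they ranged up to 0.674 and 0.546.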

How the results depend on the processing

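The immediate-early median stayed between 0.66 and 0.84 under every alternative run. Among the named genes 533 values were close to the reported ones and 37 moved, with no reversal. These genes were named for a lack of overlap in these counts, which makes a reversal unlikely beforehand. Among the list medians 771 were close, 82 moved and 2 reversed, where only reported medians at least 0.5 from 0 could count as reversed. Both reversals were neutrophil granule genes, at -0.26 without the homozygous KO libraries and -0.24 without homozygous KO animal 50, where leaving out single libraries gave up to 1.225 and the fit with no genotype term 1.94. Smaller medians also changed sign, among them airway epithelium (-0.44, up to 0.40), erythroid genes (-0.089, up to 0.80) and fibroblasts (0.43, down to -0.05). With no filter on low counts, 923 features were higher and 699 lower at least 2-fold, and the interaction called 94 and the heterozygous KO comparison 8. Leaving out single libraries gave 377 to 933 higher, 297 to 553 lower, 0 to 23 interaction calls and 3 to 5 heterozygous KO calls. The interaction called 8 with scaling by library totals, 446 with DESeq2, 230 with the wild types split by title form, 11 with Xist as a covariate and 0 without the homozygous KO libraries, and DESeq2 called 97 in the heterozygous KO comparison. The histone median was -0.29 with no genotype term. The gap on the second component was -28.6 with the 1000 most variable features. The cause of these changes was not tested.

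Replicate numbers are shared between genotypes. The deviations of same-numbered samples correlated at r -0.104 to 0.225 (9 pairs, median 0.0522). Those of differently numbered samples correlated at r -0.334 to 0.223 (24 pairs, median -0.0366). The ranges overlap, and so few pairs do not settle whether the numbers pair the samples, which were treated as unpaired. Every replicate 1 is lower-numbered. With a replicate block the lower count was 586, the interaction count 0, the histone median -0.71, and the cortical epithelium median 0.35.

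With 1 library in several combinations of genotype and set, spread within them rests on few libraries. Animal number, library number and any unstated litter or handling date cannot be told apart.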
